A study of Mus musculus with 18 samples.

Results

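Tubulin isotypes are the products of separate genes for the alpha and beta subunits of microtubules. The isotypes described here are the 10 genes with the symbols Tuba1a, Tuba1b, Tuba1c, Tuba4a, Tubb2a, Tubb2b, Tubb3, Tubb4b, Tubb5 and Tubb6, found by symbol among the 27179 genes of the deposited table of normalized read counts. All 10 were found once, 4 alpha and 6 beta genes, and all 10 passed the filter of a mean of at least 10 normalized counts that left 14353 genes for testing. They were chosen by name, with earlier results of these data known.

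RNA was sequenced from 18 cultures of mesenchymal stem cells (MSCs), the adherent stromal cells that grow from bone marrow, as 3 groups (young, old and rejuvenated old MSCs) of 6 libraries. All donors were C57BL6 mice without a transgene or deletion named in the labels. Young MSCs came from mice of 6 weeks and old MSCs from mice of 18 to 24 months, both cultured for 7 days and labelled as untreated. Rejuvenated old MSCs were old MSCs, 100000 cells in a culture, kept for the same 7 days in a well with young MSCs on the other side of a membrane with 0.4 micrometre pores that passes soluble factors and holds back cells. No old MSCs kept with other old MSCs were analysed here, so the age of the partner cells and the presence of a partner cannot be told apart. The sources do not say which libraries came from the same animals, so each p-value measures the spread between these cultures.

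A microtubule is a hollow tube built from dimers of 1 alpha-tubulin and 1 beta-tubulin, and it grows and shrinks from its ends. Isotypes differ little in the body of the protein and more in the tail at the end of the chain, which lies on the outer face of the tube and is where many enzymes and motor proteins act. In marrow stromal cells microtubules carry vesicles for secretion, shape and move the cell and form the mitotic spindle. When free dimers are in excess, the protein TTC5 binds the first residues of a nascent tubulin and has its mRNA degraded, a feedback called tubulin autoregulation.

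The first 4 codons carry the signal for this feedback and are shown for this reason in capitals within the first 30 coding bases, 5′ to 3′, of 9 of the members in the GENCODE M21 transcripts (GRCm38).
Tuba1a: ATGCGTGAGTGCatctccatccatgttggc
Tuba1b: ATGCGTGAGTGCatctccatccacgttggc
Tuba1c: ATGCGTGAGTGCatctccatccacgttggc
Tuba4a: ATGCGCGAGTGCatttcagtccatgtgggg
Tubb2a: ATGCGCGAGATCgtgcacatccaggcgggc
Tubb2b: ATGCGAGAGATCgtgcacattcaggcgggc
Tubb3: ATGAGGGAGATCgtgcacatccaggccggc
Tubb4b: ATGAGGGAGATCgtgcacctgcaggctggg
Tubb5: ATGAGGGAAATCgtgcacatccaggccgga
In all 10 members codons 2 and 3 encode arginine and glutamate. Codon 4 encodes cysteine in the 4 alpha genes and isoleucine in the 6 beta genes.

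The tails are shown as the last 45 coding bases before the stop codon, with the acidic codons for glutamate and aspartate in capitals, because the isotypes can be told apart there. Among the alpha genes, Tuba1c and Tuba4a are shown, one with and one without a tyrosine codon at the end.
Tuba1c: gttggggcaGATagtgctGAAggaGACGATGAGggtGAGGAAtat
Tuba4a: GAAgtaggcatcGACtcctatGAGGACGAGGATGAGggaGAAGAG
The last codon of Tuba1c was tat, for tyrosine, as that of Tuba1a and Tuba1b also was for tyrosine, the residue that carboxypeptidases remove from microtubules and tubulin tyrosine ligase (Ttl) puts back. The last codon of Tuba4a was gag, for glutamate. The beta genes ended as follows.
Tubb2a: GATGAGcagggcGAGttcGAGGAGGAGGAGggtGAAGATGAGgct
Tubb2b: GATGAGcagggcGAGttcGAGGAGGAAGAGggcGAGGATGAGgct
Tubb3: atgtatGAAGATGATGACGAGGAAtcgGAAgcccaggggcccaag
Tubb4b: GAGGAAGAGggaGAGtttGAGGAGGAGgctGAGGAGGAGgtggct
Tubb5: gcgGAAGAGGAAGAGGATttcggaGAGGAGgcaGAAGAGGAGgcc
Of the last 15 codons, 10 were acidic in Tubb2a, Tubb2b, Tubb4b and Tubb5, and 7 in Tubb3, whose tail closed with a lysine codon.

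The body of the coding sequence was nearly the same in the alpha-1 genes, which limits how reads can be assigned to them. Over the whole coding sequence Tuba1a and Tuba1b were 98.3% identical, Tuba1b and Tuba1c 97.9%, and Tuba1a and Tuba1c 97.1%, against 84.8% to 85.2% between Tuba4a and each of the 3. Tubb2a and Tubb2b were 96.5% identical, and the other pairs of beta genes 80.2% to 86.0%.

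Tuba1b (chr15:98931425-98934565) and Tuba1a (chr15:98949837-98953703) lie close together on the minus strand, where the annotation also holds an overlapping gene, Gm49450, across both, with Tuba1c (chr15:99029891-99038110) beyond them on the plus strand. Tubb2a (chr13:34074274-34078007) and Tubb2b (chr13:34126748-34130466) are likewise close together, both on the minus strand. Tuba4a is at chr1:75214228-75219865, Tubb3 at chr8:123411424-123422015, Tubb4b at chr2:25222160-25224702 and Tubb5 at chr17:35833921-35838306. These positions are in GRCm38, and the stretches shown are exonic and coding.

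Reads were not equally assignable to all members. The share of all 75-base windows of a member's transcript that also occurred, on either strand, in a transcript of another gene was 70.4% for Tuba1a, 78.3% for Tuba1b and 56.7% for Tuba1c, and in the coding part alone 87.3%, 93.8% and 84.9%. These windows were shared with each other and with predicted genes and pseudogenes such as Gm6682 and Gm5620. The share was 43.2% for Tubb2a, 32.2% for Tubb2b and 40.9% for Tubb4b, and it was 0% for Tubb3, Tubb5 and Tubb6. Of the Tuba4a transcript 47.2% of windows were shared with Stk16, a gene on the opposite strand whose exons overlap its end, but 0% in the coding part. The read length, the strand setting and the treatment of reads that match several genes are not given in the sources used here, so the counts of the alpha-1 genes, Tubb2a, Tubb2b and Tubb4b are uncertain in this respect, and without the strand setting reads of Tuba4a and Stk16 cannot be told apart where they overlap.

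**Figure D1:**
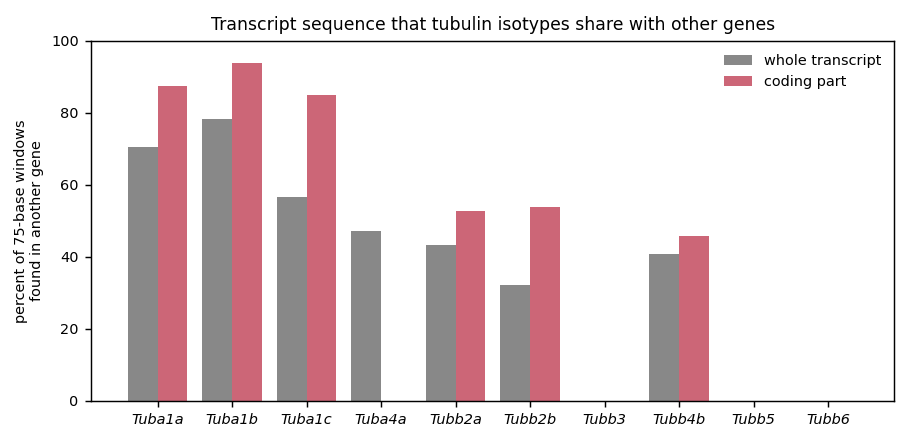
Share of the 75-base windows of each member's transcript (grey) and of its coding part (red) that occur in another gene's transcript, in percent. Tuba1a, Tuba1b and Tuba1c stand highest, from 56.7% to 78.3% of the transcript, and Tubb3, Tubb5 and Tubb6 are at 0%.

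The libraries held 22936251 to 29559194 reads on genes, and the deepest had 1.29 times the reads of the shallowest. The stromal markers Cd44, Ly6a (Sca-1), Pdgfra and Pdgfrb were present in all groups, but Thy1 did not exceed 3 reads in any old library. All 12 stromal markers were called between young and old MSCs by limma, 5 higher and 7 lower in young. So were 85.7% of all genes tested. Eng (endoglin) had a mean of 163 normalized counts in young and 7340.3 in old libraries, and Cxcl12, a chemokine of marrow stroma, 9227 and 197374. Lepr, the leptin receptor, had 36.2 and 378, and Nt5e (CD73) 295 and 15.9. The summed level of 12 macrophage and leukocyte markers was 925 to 1040.2 normalized counts in young, 15153 to 19175 in old and 15261 to 18667 in rejuvenated old libraries, and no young library held over 3 reads of Ptprc, Adgre1, Itgam, C1qa, C1qb or C1qc. Every comparison with young MSCs below therefore carries this difference in marker level, and its part in the tubulin values was not tested. In bulk RNA, fewer cells of a type and less RNA per cell cannot be told apart. Of 8 endothelial markers Tie1 had at most 3 reads in every library, and Cdh5 in every old and rejuvenated old one. The sum of the 8 markers was 6995 to 7345 normalized counts in young libraries, mostly Cd34. It was 146 to 193 in old and 186 to 556 in rejuvenated old libraries. Rejuvenated old replicate 1 stood apart, with 402 normalized counts of Cd34 where the remaining 5 of its group had 24.2 to 41.9. Young libraries had 6787 to 7191 of Cd34 and old ones 19.4 to 28.0. Thy1 was 21.6 in this replicate and 0.00 to 0.95 in the remaining 5, with 175 to 227 in young and 0.00 to 3.23 in old libraries. The fold changes of the members and their shares without this library are given after the isotypes.

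Between rejuvenated old and old MSCs, 5 members rose, 1 fell and 4 did not pass the test. The beta genes Tubb3, Tubb2b, Tubb5, Tubb2a and Tubb4b rose, the first of them 1.66-fold, and the alpha gene Tuba4a fell to 0.715 of its old level. The alpha-1 genes Tuba1a, Tuba1b and Tuba1c and the beta gene Tubb6 were not called. A gene is called here when limma's moderated test over all 14353 genes gave a Benjamini-Hochberg adjusted p under 0.05. Of all genes tested 41.6% were called in this comparison, 21.0% as higher and 20.6% as lower, beside these 6 of 10 members, and in 22.0% of all genes the 2 groups did not overlap, as they did not in the same 6 members. The median log2 fold change was 0.15 over the members and 0.01 over all genes tested.

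Between young and old MSCs the differences were larger, and 8 of the 10 members were called, beside 85.7% of all genes tested (41.6% higher and 44.1% lower in young). Young MSCs had the lower level in 7 of them, among which Tubb2b, Tubb3, Tuba1c, Tubb2a and Tuba1a were 3.63 to 6.82-fold higher in old MSCs, and the higher level in Tuba4a, by 4.71-fold. The groups did not overlap in 7 members, beside 73.9% of all genes. The median log2 fold change of young against old was -1.59 over the members and -0.02 over all genes. Rejuvenated old and young MSCs differed in 9 members, beside 85.6% of all genes called, and the groups did not overlap in 9, beside 70.5%. The comparisons share libraries, the first and the second the 6 old ones, so they are not independent and their values are given side by side.

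**Figure D2:**
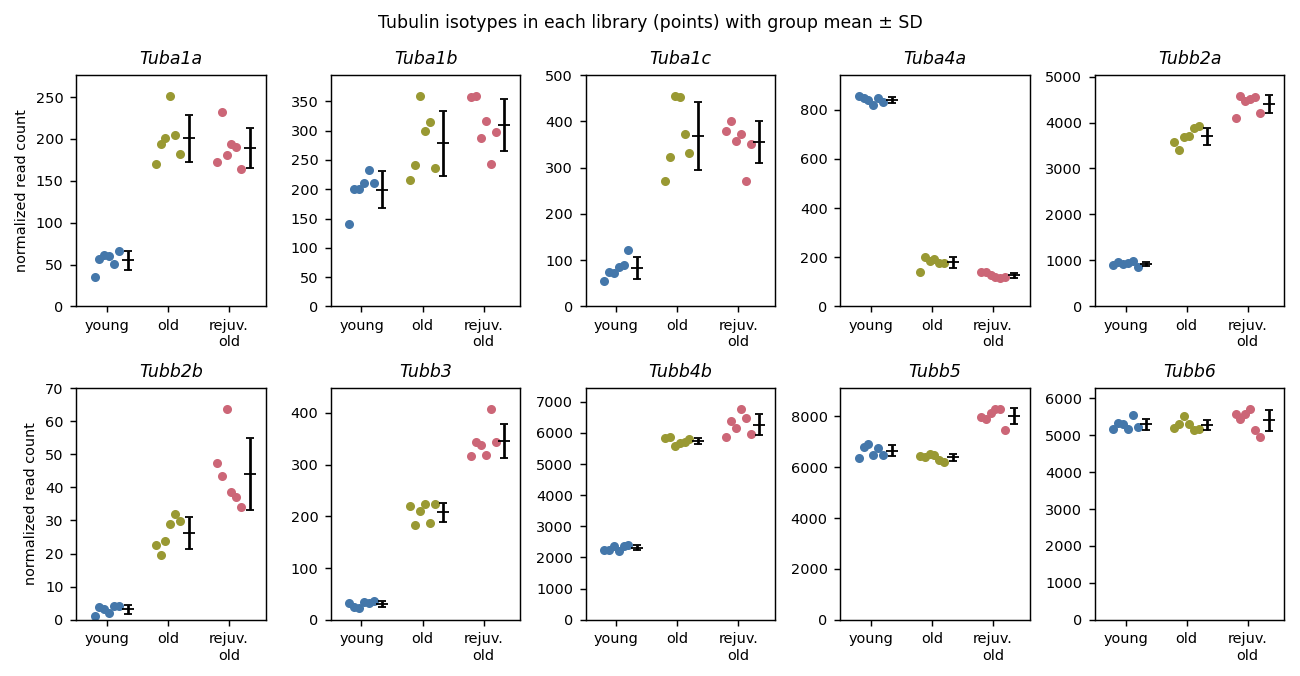
Normalized read counts of the 10 members in each of the 18 libraries (points, 6 per group) with the group mean and SD beside them; each panel has its own axis from 0. Tuba4a is the member with its highest values in young libraries, at 821 to 858, whereas Tubb3 runs from 23.5 to 37.1 in young, 183 to 224 in old and 317 to 408 in rejuvenated old libraries.

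Tubb3 encodes the beta-III isotype, best known as a marker of neurons. Its level ran from 23.5 to 37.1 normalized counts with a median of 32.3 in young libraries. In old libraries it ran from 183 to 224 with a median of 215, and in rejuvenated old libraries from 317 to 408 with a median of 341. The 3 groups did not overlap, with young lowest and rejuvenated old highest. The log2 fold change of rejuvenated old against old was 0.73 (SE 0.11, limma adjusted p = 1.08e-05), and 5.14% of the genes tested had a larger change in either direction. Without replicate 1 of the rejuvenated old group it was 0.75 (limma adjusted p = 1.84e-05). Young against old gave -2.75 (SE 0.11, limma adjusted p = 8.44e-17), and rejuvenated old against young 3.48 (SE 0.11, limma adjusted p = 1.00e-18). None of its windows occurred unchanged in an annotated transcript of another gene at this window length.

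As Tubb3 is also a neuronal gene, 14 markers of neurons and Schwann cells were examined beside it. Rbfox3, Snap25, Nefl, Nefm, Elavl4 and Sox10 had at most 3 reads in every library of all groups. The summed level of the 14 markers was 285 to 369 normalized counts in young, 1001 to 1223 in old and 668 to 748 in rejuvenated old libraries. Most of this sum in old libraries came from S100b, at 483 to 656, and Syn1, at 359 to 413. Of the 5 markers tested, 1 rose, 2 fell and 2 were not called between rejuvenated old and old MSCs. Over all genes tested 21.0% rose and 20.6% fell. The part of such cells in the level of Tubb3 was not tested.

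Tubb2a and Tubb2b encode the beta-II isotypes, abundant in the brain and present in many other tissues. Tubb2a had 859.8 to 977 normalized counts in young libraries with a median of 929.7. Its old libraries had 3409.8 to 3932 with a median of 3695, and its rejuvenated old libraries 4105 to 4586 with a median of 4489. No group overlapped another. The log2 fold change of rejuvenated old against old was 0.25 (SE 0.04, limma adjusted p = 2.39e-05), or 1.19-fold, and without the library that stood apart 0.27. Young against old gave -1.998 (SE 0.04, limma adjusted p = 2.38e-22).

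Tubb2b was the scarcest member, with 1.09 to 4.26 normalized counts in young libraries, a median of 3.67 and 18 reads over all 6. In old libraries it had 19.7 to 32.1 (median 26.4, 158 reads) and in rejuvenated old libraries 34.0 to 63.7 (median 41.0, 275 reads). The groups again did not overlap. The log2 fold change of rejuvenated old against old was 0.72 (SE 0.23, limma adjusted p = 0.0162) and without replicate 1 of the rejuvenated old group 0.69 (limma adjusted p = 0.0298). Young against old gave -2.77 (SE 0.23, limma adjusted p = 1.39e-10). At these counts the fold depends on the value added before the logarithm, and over the alternatives tried young against old ran from -3.05 to -1.46. Of the Tubb2b windows 29.3% occur in Tubb2a, whose level per kilobase in old libraries was 2297 against 11.99 for Tubb2b, and the part of Tubb2a reads in its count was not tested.

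Tubb4b and Tubb5 are the broadly expressed beta-IV and beta-I isotypes, the latter the main beta-tubulin of many dividing cells. Tubb4b had 2199.7 to 2399 normalized counts in young (median 2308), 5577 to 5855 in old (median 5749) and 5882 to 6772 in rejuvenated old libraries (median 6260.3). The gap between the highest old and the lowest rejuvenated old library was narrow, and the log2 fold change of 0.12 (SE 0.03, limma adjusted p = 0.00459) was exceeded in size by 55.9% of the genes tested. Young against old was -1.32 (SE 0.03, limma adjusted p = 2.40e-20), a 2.49-fold higher level in old MSCs.

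Tubb5 was the most read member, with 6380.3 to 6919 normalized counts in young libraries and a median of 6618. Old libraries had 6189 to 6538 with a median of 6437 and overlapped with young ones, whereas rejuvenated old libraries had 7470.4 to 8294 with a median of 8045, above every library of both other groups. The log2 fold change of rejuvenated old against old was 0.32 (SE 0.03, limma adjusted p = 1.12e-08), or 1.25-fold, and that of rejuvenated old against young 0.27 (SE 0.03, limma adjusted p = 1.41e-08). Young against old gave 0.05 (SE 0.03, limma adjusted p = 0.0921, 95% interval 0.00 to 0.11). This last value was called under 3 other scalings of the libraries and by DESeq2, at 0.06 to 0.14. It was above 0 under every scaling tried, and -0.17 relative to the median of the genes of its chromosome, which was 0.22.

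Tubb6, the beta-V isotype of fibroblasts and other non-neuronal cells, was the member whose groups were closest together. It had 5157 to 5559 normalized counts in young libraries (median 5262), 5129 to 5523 in old (median 5253) and 4956 to 5714 in rejuvenated old libraries (median 5502). All 3 ranges overlapped. The log2 fold change was 0.03 for rejuvenated old against old (SE 0.03, limma adjusted p = 0.463, 95% interval -0.03 to 0.10) and 0.00 for young against old (SE 0.03, limma adjusted p = 0.898, 95% interval -0.06 to 0.07). With all libraries scaled to the same total, young against old became 0.08 (limma adjusted p = 0.0232). Of the genes tested, 99.5% differed more between young and old MSCs.

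Tuba4a encodes the alpha-tubulin without a tyrosine codon at its end, and its order of the groups was the reverse of that of Tubb3. Its level was 821 to 858 normalized counts in young libraries (median 843), 141 to 203 in old (median 179.6) and 117 to 140.0 in rejuvenated old libraries (median 124). No group overlapped another, and the highest rejuvenated old library, replicate 1 at 140.0, lay just below the lowest old one. The log2 fold change of rejuvenated old against old was -0.48 (SE 0.07, limma adjusted p = 1.82e-05) and without that library -0.51 (limma adjusted p = 1.41e-05). Young against old gave 2.24 (SE 0.07, limma adjusted p = 3.94e-18). The genes of chromosome 1 had a median log2 fold change of -0.69 in this comparison, and relative to it the value of Tuba4a was 2.93. The overlapping gene Stk16 had 1086 to 1262 normalized counts in young, 1782 to 1995 in old and 1800.0 to 1961 in rejuvenated old libraries, lowest in the group where Tuba4a was highest.

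Tuba1a is known from neurons of the developing brain, Tuba1b is the most broadly expressed alpha-tubulin, and Tuba1c is a further broadly expressed one. Tuba1a had 34.8 to 65.9 normalized counts in young (median 58.8), 169.9 to 252 in old (median 198) and 164 to 232 in rejuvenated old libraries (median 185). Tuba1c had 54.4 to 123 in young (median 80.4), 271 to 456 in old (median 353) and 270.1 to 401 in rejuvenated old libraries (median 365). For both genes every old and rejuvenated old library was above every young one, while old and rejuvenated old overlapped widely. Young against old was -1.86 for Tuba1a (SE 0.13, limma adjusted p = 5.23e-12) and -2.15 for Tuba1c (SE 0.15, limma adjusted p = 6.56e-12).

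Tuba1b showed the smallest of the called differences between young and old MSCs. It had 140.4 to 233 normalized counts in young (median 206), 216 to 359.8 in old (median 271) and 243 to 359.6 in rejuvenated old libraries (median 307). Young and old libraries overlapped, and young against old was -0.47 (SE 0.13, limma adjusted p = 0.00179). Between rejuvenated old and old MSCs the 95% intervals of the log2 fold change were -0.34 to 0.17 for Tuba1a, -0.08 to 0.42 for Tuba1b and -0.34 to 0.26 for Tuba1c, so changes as large as those of Tubb2a lie within 2 of the intervals on the upward side.

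The alpha-1 genes, among other members, varied more between libraries of a group than the reads counted would give. In old libraries the SD was 14.1% of the mean for Tuba1a, 20.0% for Tuba1b and 20.1% for Tuba1c, where counting error alone gives 7.04%, 5.99% and 5.2%. For Tubb4b it was 1.91% against 1.32% and for Tubb2a 5.17% against 1.64%, while Tubb2b did not exceed it, at 18.6% against 19.5%. In rejuvenated old libraries Tubb4b had 5.37% against 1.24%, Tubb6 5.43% against 1.33% and Tubb5 3.86% against 1.09%. The excess was thus not confined to the alpha-1 genes. Old replicate 1 was the lowest old library for each of the 4 alpha genes, and young replicate 1 the lowest young library for Tuba1a, Tuba1b and Tuba1c. The predicted gene Gm6682, which holds 20.0% to 27.1% of the windows of the alpha-1 genes, had 9.11 to 21.2 normalized counts in young, 41.4 to 82.9 in old and 48.5 to 68.0 in rejuvenated old libraries, so its young libraries were lowest as well. Gm5620 had 85.5 to 125, 113 to 182 and 131 to 268.

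**Figure D3:**
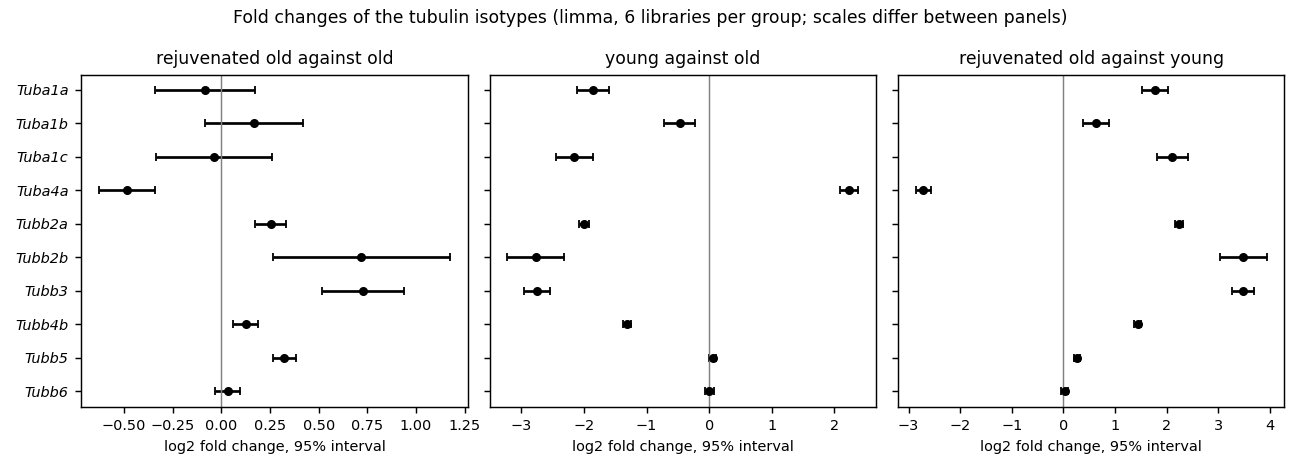
Log2 fold change of each member (points, from log2 of the normalized count plus 1) with its 95% interval in each of the 3 comparisons, 6 libraries per group. Between rejuvenated old and old MSCs Tubb3 and Tubb2b are farthest to the right at 0.73 and 0.72, Tuba4a is alone on the left with an interval clear of 0, and the intervals of Tuba1a, Tuba1b, Tuba1c and Tubb6 include 0.

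To compare members with each other, normalized counts were divided by exon length in kilobases. On this scale the mean level in young libraries was 3010.2 ± 83.8 (SD, n = 6) for Tubb6, 2506 ± 81.6 for Tubb5, 1444 ± 52.2 for Tubb4b and 574 ± 27.4 for Tubb2a. In old libraries Tubb4b was first with 3593 ± 68.5, followed by Tubb6 with 3000.4 ± 80.3, Tubb5 with 2413 ± 50.1 and Tubb2a with 2297 ± 119. In rejuvenated old libraries Tubb4b had 3922 ± 210.5, Tubb6 3072 ± 167, Tubb5 3023 ± 117 and Tubb2a 2736 ± 123. Neighbours in these orders were farther apart than the larger of their SDs, except Tubb5 and Tubb2a in old libraries and Tubb6 and Tubb5 in rejuvenated old ones. Tubb3, at 185 ± 17.6, and Tubb2b, at 20.2 ± 4.92, stayed low in rejuvenated old libraries, where they were highest. The order depends on the length used. Divided by coding length, Tubb5 was first in every group, with 4984 ± 162 in young libraries against 3946 ± 109.9 for Tubb6. It had 4799 ± 99.7 in old libraries against 4301 ± 82.0 for Tubb4b, and 6011 ± 232 in rejuvenated old ones against 4694 ± 252.

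The make-up of the beta-tubulin mRNA thus differed between young and old MSCs. Tubb6 and Tubb5 held 39.9% ± 0.405 and 33.2% ± 0.549 (SD, n = 6) of the summed beta level per kilobase in young libraries and 26.3% ± 0.641 and 21.1% ± 0.445 in old ones. Tubb4b and Tubb2a held 19.1% ± 0.556 and 7.61% ± 0.280 in young and 31.4% ± 0.733 and 20.1% ± 0.984 in old libraries. In rejuvenated old libraries the shares were 30.3% ± 0.764 for Tubb4b, 23.7% ± 1.01 for Tubb6, 23.3% ± 0.448 for Tubb5, 21.1% ± 0.575 for Tubb2a and 1.43% ± 0.140 for Tubb3. The share of Tubb3 was 0.216% ± 0.0414 in young and 0.974% ± 0.0809 in old libraries. By coding length Tubb5 held 43.8% in young libraries and 32.8% in rejuvenated old ones, Tubb6 34.7% and 22.0%, and Tubb4b 15.2% and 25.6%, each in the same direction between these groups as by exon length. With whole counts divided by the number of windows found in no other gene, Tubb2a was second in old libraries. It held 25.9% there, after Tubb4b with 38.95% and before Tubb6 with 19.1% and Tubb5 with 15.2%. Rejuvenated old libraries then had 37.5% for Tubb4b, 27.2% for Tubb2a, 17.3% for Tubb6 and 16.8% for Tubb5. Young libraries had 33.6% for Tubb6, 27.5% for Tubb5, 27.4% for Tubb4b and 11.3% for Tubb2a. The summed beta level per kilobase of exon was 7552 ± 197 in young libraries, 11427 ± 70.7 in old ones and 12957 ± 497 in rejuvenated old ones.

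The order of the alpha genes by level per kilobase differed between young and old MSCs. Tuba4a held 61.5% ± 4.64 of the summed alpha level per kilobase in young libraries, 12.3% ± 1.59 in old ones and 8.87% ± 0.618 in rejuvenated old ones. Tuba1c held 8.60% ± 1.94, 35.6% ± 1.69 and 35.3% ± 1.72, and Tuba1b 23.6% ± 2.58, 30.6% ± 2.33 and 35.0% ± 1.68. The summed alpha level per kilobase of exon was 483 ± 29.4 in young libraries, 519 ± 83.2 in old ones and 507 ± 56.2 in rejuvenated old ones, and the ranges of the 3 groups overlapped. Counted by coding length in place of exon length, the share of Tuba4a was 71.6% in young libraries, 17.7% in old ones and 13.0% in rejuvenated old ones. Whole counts were also divided by the number of windows found in no other gene, which leaves any reads from shared windows in the counts. How such reads were treated is not given in the sources. Young libraries then had nearly level shares of Tuba4a, 43.5% ± 4.85, and Tuba1b, 41.1% ± 3.32. Tuba1b then led among old libraries, with 44.3% against 25.6% for Tuba1c and 7.17% for Tuba4a. Rejuvenated old libraries had Tuba1b first as well, with 49.1% against 24.6% for Tuba1c and 5.01% for Tuba4a. The order of the groups in the summed alpha level also depends on the length used. By coding length the sum was highest in young libraries, at 875 ± 38.0, with 759.9 ± 118 in old ones and 727 ± 79.1 in rejuvenated old ones. With only windows found in no other gene counted as length, it was lowest in young libraries, at 1109 to 1433, with 1354 to 2064 in old ones and 1450.1 to 2028 in rejuvenated old ones, which did not overlap with young ones.

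The summed beta level was 15.7 ± 0.845 times the alpha level in young libraries, 22.5 ± 3.68 times in old ones and 25.8 ± 3.10 times in rejuvenated old ones, although the subunits are used in equal number. When only windows found in no other gene were counted as length, the ratios were 7.06, 9.69 and 10.8. How far reads that match several alpha-1 genes are missing from the table was not tested.

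**Figure D4:**
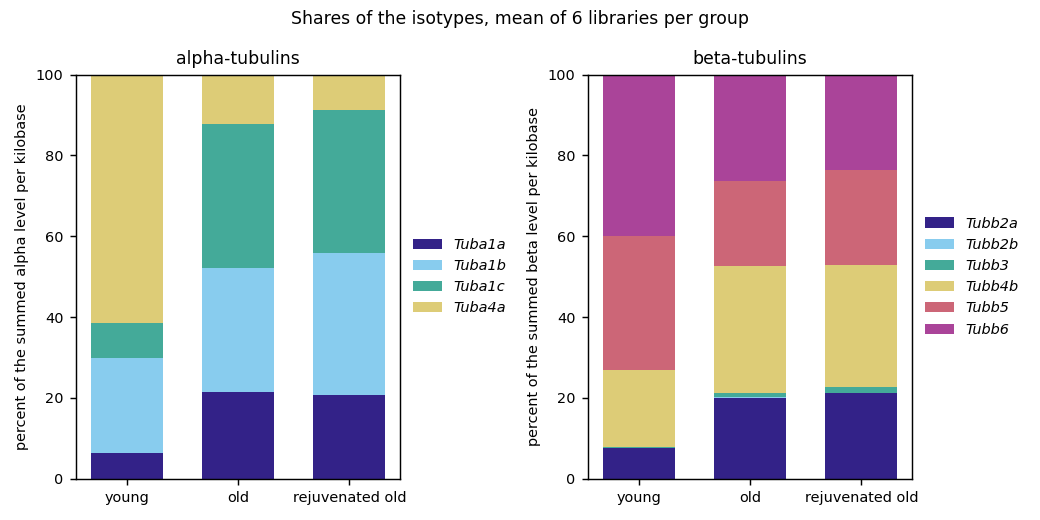
Mean share of each isotype in the summed alpha (left) and beta (right) level per kilobase of exon, in percent, for 6 libraries of each group. Tuba4a takes 61.5% of the alpha bar in young and 8.87% in rejuvenated old MSCs, and Tubb6 takes 39.9% and 23.7% of the beta bar.

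Without replicate 1 of the rejuvenated old group, 6 members were again called against old and 9 against young MSCs by limma. Against old MSCs the log2 fold changes without it were 0.75 for Tubb3, 0.69 for Tubb2b, 0.33 for Tubb5, 0.27 for Tubb2a, 0.14 for Tubb4b and -0.51 for Tuba4a. Those of the 4 members not called were 0.13 for Tuba1b, 0.02 for Tubb6, and -0.06 for both Tuba1a and Tuba1c. Against young MSCs they were 3.50 for Tubb3, 3.46 for Tubb2b, 2.27 for Tubb2a, 2.09 for Tuba1c, 1.80 for Tuba1a, 1.46 for Tubb4b, 0.60 for Tuba1b, 0.27 for Tubb5, 0.02 for Tubb6 and -2.75 for Tuba4a. Of the 10 shares in rejuvenated old libraries 0 moved by more than their SD without it. The share of Tubb4b was then 30.5% and that of Tuba4a 8.82%.

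The genes with the pattern most like that of Tubb3 over the 18 libraries, by Pearson's r of log2(normalized count + 1), were Rasl11a, Cldn1 and Micall2, each at r = 0.995 when rounded. Cldn1, a tight junction protein, had 8.96 to 24.7 normalized counts in young, 338 to 393 in old and 746 to 965 in rejuvenated old libraries. For Tubb2b they were Hspe1, a mitochondrial chaperonin, Kdelr3 and Cryzl1, at r = 0.981, 0.980 and 0.979. These values mainly reflect the distance between the 3 groups, which the 18 libraries share.

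Other tubulin genes varied in level and in the order of the groups. Of 10 further tubulin genes 6 were tested, and the 4 others, Tuba3a, Tuba3b, Tubal3 and Tubb1, had at most 2.73 normalized counts in any library. Tubb4a, a mostly neuronal beta-IV gene, had 73.9 to 105 normalized counts in young and 1.00 to 5.77 in old libraries, a log2 fold change of 4.89 (SE 0.32, limma adjusted p = 1.55e-12). Tuba8, an alpha gene, had 38.8 to 61.8 in young, 3.01 to 6.89 in old and 0.931 to 6.60 in rejuvenated old libraries. Its log2 fold change of young against old was 3.17 (SE 0.33, limma adjusted p = 7.13e-09). Tubg1 and Tubg2 encode gamma-tubulin, which nucleates microtubules. Tubg1 had 1154 to 1287 in young, 1200.0 to 1329 in old and 1081 to 1302 in rejuvenated old libraries and was not called in any of the 3 comparisons. Tubg2 had 207 to 246 in young, 216 to 265 in old and 290.4 to 427 in rejuvenated old libraries. Rejuvenated old libraries were thus highest, as for Tubb5. Its log2 fold change of rejuvenated old against old was 0.57 (SE 0.08, limma adjusted p = 7.44e-06). Tubd1, a delta-tubulin of centrioles, was lower in young than in old MSCs by a log2 fold change of -0.57 (SE 0.09, limma adjusted p = 4.36e-06). In this list 2 of 6 genes, Tubg2 and Tube1, rose between rejuvenated old and old MSCs by limma, and 0 fell. These counts were the same at an unadjusted p under 0.05 and by edgeR and DESeq2. Of all genes tested, 21.0% were called higher and 20.6% lower by limma.

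Tubulin needs chaperones to fold and to pair. Of 22 genes of folding and dimer assembly, 7 rose and 3 fell between rejuvenated old and old MSCs. Their median log2 fold change was 0.08, and of all genes tested 21.0% rose and 20.6% fell. Pfdn6, a subunit of prefoldin, went from 962 to 1149 normalized counts in old to 1168 to 1564 in rejuvenated old libraries, with 2111 to 2428 in young ones. Tbcel, which takes dimers apart, fell from 2043 to 2250.3 in old to 1823 to 1933 in rejuvenated old libraries. Pdcl3, a co-chaperone, had 942 to 1095 in young and 2511 to 2761 in old libraries. In the list 12 genes were higher and 8 lower in young than in old MSCs by limma, beside 41.6% and 44.1% of all genes. By edgeR and by DESeq2, 13 were higher and 8 lower.

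Of 20 genes of nucleation and the gamma-tubulin ring, 2 rose and 2 fell between rejuvenated old and old MSCs by limma. By edgeR and by DESeq2, 4 rose and 2 fell. In young against old MSCs 10 were higher and 5 lower. Over all genes tested 21.0% rose and 20.6% fell in the first comparison, and 41.6% were higher and 44.1% lower in the second. Haus7, of the augmin complex, which starts new microtubules from the side of others, had 1209 to 1371 normalized counts in old and 1417 to 1722 in rejuvenated old libraries. Tubgcp5, a ring subunit, was higher in young than in old libraries, at 379.5 to 499.9 against 170.2 to 225. Mzt2, a small ring protein, was lower there, at 409.8 to 539 against 805 to 999.5.

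The enzymes that modify tubulin act mainly on its tail. Of 22 tested, 2 rose and 6 fell between rejuvenated old and old MSCs by limma, beside 21.0% and 20.6% of all genes. By edgeR and by DESeq2, 2 rose and 7 fell. In young against old MSCs 7 were higher and 11 lower, beside 41.6% and 44.1% of all genes. Ttl, the ligase that restores the last tyrosine of Tuba1a, Tuba1b and Tuba1c, had 983 to 1067 normalized counts in young, 1092 to 1260.4 in old and 1230.1 to 1322 in rejuvenated old libraries. It was called in rejuvenated old against old, at a log2 fold change of 0.13 (SE 0.04, limma adjusted p = 0.00806), although the groups overlapped. Ttll5, a glutamylase, fell from 499 to 573 in old to 425 to 490.2 in rejuvenated old libraries. Hdac6, a tubulin deacetylase, had 1816 to 1966 in young and 834 to 989.9 in old libraries, and Ttll9, a further glutamylase, 0.00 to 4.47 and 23.6 to 48.1.

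Of 23 proteins that bind the microtubule lattice or its ends, 2 rose and 9 fell between rejuvenated old and old MSCs. Their median log2 fold change was -0.08, and of all genes 21.0% rose and 20.6% fell. In young against old MSCs 7 were higher (8 by DESeq2) and 14 lower, beside 41.6% and 44.1% of all genes. Map1a, a stabilising protein known from neurons, had 3446 to 3721 normalized counts in old, 2447 to 2755 in rejuvenated old and 1831 to 1990.4 in young libraries. Its log2 fold change of rejuvenated old against old was -0.45 (SE 0.03, limma adjusted p = 9.40e-10). Mtus1, which binds microtubules through its product ATIP, had 1520.0 to 1669 in young and 160.2 to 198 in old libraries. Camsap3, which caps minus ends, had 10.9 to 28.8 and 191 to 254.

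Of 12 destabilisers and severing enzymes, 2 rose and 1 fell between rejuvenated old and old MSCs, beside 21.0% and 20.6% of all genes. In young against old MSCs 5 were higher and 5 lower, beside 41.6% and 44.1% of all genes. Stmn1, or stathmin, which binds free dimers, had 259 to 346 normalized counts in young, 427 to 512 in old and 461 to 592 in rejuvenated old libraries. It was called in rejuvenated old against old at a log2 fold change of 0.19 (SE 0.07, limma adjusted p = 0.0369). Fignl1, a fidgetin-like protein, had 163 to 226 in old and 229 to 259.8 in rejuvenated old libraries. The mitotic kinesins Kif18a and Kif18b differed in direction, with 157 to 256 and 80.5 to 129.7 in young against 74.3 to 124 and 201 to 238 in old libraries.

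Of 12 genes of tubulin mRNA autoregulation 0 rose and 1 fell between rejuvenated old and old MSCs by limma, beside 41.6% of all genes called in either direction, with a median log2 fold change of -0.01. At an unadjusted p under 0.05 limma gave 1 higher and 1 lower, and edgeR and DESeq2 each called 0 higher and 1 lower. Ttc5 itself had 751 to 889 normalized counts in young, 834 to 947 in old and 862 to 968 in rejuvenated old libraries. Its log2 fold change of rejuvenated old against old was 0.05 (SE 0.05, limma adjusted p = 0.430), and young against old gave -0.14 (SE 0.05, limma adjusted p = 0.00826). Between young and old MSCs 5 genes of the list were higher and 5 lower, beside 41.6% and 44.1% of all genes. Among them were Cnot3, at 1275 to 1596 against 773 to 868, and Cnot9, at 863 to 940.1 against 1792 to 1914. Both are subunits of the CCR4-NOT complex that removes poly(A) tails.

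Motor proteins carry cargo along microtubules. Of 28 transport motor genes, 4 rose and 10 fell between rejuvenated old and old MSCs by limma, beside 21.0% and 20.6% of all genes. With 4 risers each, edgeR called 11 lower and DESeq2 12. In young against old MSCs 5 were higher and 20 lower, beside 41.6% and 44.1% of all genes. The median log2 fold changes of the list were -0.09 and -0.53. Kif5c, a kinesin-1 heavy chain, had 86.7 to 112 normalized counts in young, 40.1 to 51.8 in old and 15.5 to 34.0 in rejuvenated old libraries, a log2 fold change of rejuvenated old against old of -1.04 (SE 0.15, limma adjusted p = 8.75e-06). Klc1, a kinesin-1 light chain, had 3994 to 4224 in old and 4480.5 to 4974 in rejuvenated old libraries. Kif1a, a vesicle motor of neurons, had 1.01 to 13.4 in young, 179 to 231 in old and 105 to 157 in rejuvenated old libraries. It was not called in rejuvenated old against old, at a log2 fold change of -0.70 (SE 0.28, limma adjusted p = 0.0511), although these groups did not overlap.

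**Figure D5:**
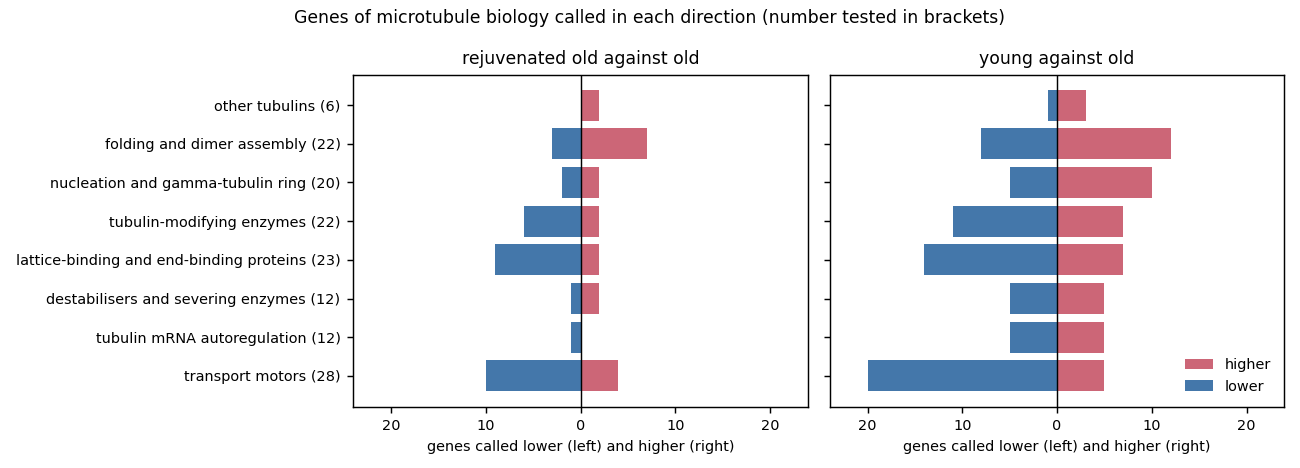
Number of genes called higher (right, red) and lower (left, blue) in each list of microtubule genes, with the number tested in brackets, for rejuvenated old against old (left panel) and young against old MSCs (right panel). Transport motors have 10 lower and 4 higher genes on the left and 20 lower and 5 higher on the right. Over all genes tested 20.6% were lower and 21.0% higher in the first comparison, and 44.1% and 41.6% in the second.

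Dividing cells need tubulin for the spindle. Of 16 markers of dividing cells 7 rose between rejuvenated old and old MSCs by limma, beside 21.0% of all genes tested, 9 were not called, and 0 fell, also at an unadjusted p under 0.05 and by edgeR and DESeq2. Their summed level was 18325 to 21823 normalized counts in rejuvenated old, 15690.3 to 18656 in old and 12639.6 to 15213 in young libraries. In young against old MSCs 4 of the 16 were higher, 8 lower and 4 not called by limma, beside 41.6% higher and 44.1% lower of all genes. Cdk1, the mitotic kinase, had 1321 to 1628 in old and 1785 to 2059.9 in rejuvenated old libraries. The part of these markers in the level of Tubb5, Tubb4b and the other risers was not tested. Summed macrophage markers overlapped between old and rejuvenated old libraries, with 1 of 12 called higher and 1 lower by limma. By edgeR and by DESeq2, 2 were higher and 2 lower.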

How the data were processed

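RNA was sequenced from 6 young, 6 old and 6 rejuvenated old MSC cultures. According to the paper and the labels, the authors aligned reads to mm10 with HISAT2, used StringTie and featureCounts, and normalized with DESeq2 on Galaxy, without versions given. The deposited signal values are reads per gene divided by 1 size factor per library. Every value of a library was a multiple of one step, so whole reads were recovered for 100% of values (within 0.1 of a read). In 2 libraries the step was too close to 1 for this to be told from rounding. Library totals ran from 22936251 to 29559194 reads, and counting error is smallest for Tubb5 and largest for Tubb2b.

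Groups came from the sample titles. The test was limma 3.58.1 (R 4.3.3) on log2(value + 1), with a mean per group over all 3 groups and a prior variance following the mean, over genes with a mean of at least 10, with Benjamini-Hochberg adjustment. Intervals are normal 95% intervals. Genes were named by rule, namely all members, the called gene of each list with the largest rise and fall whose groups did not overlap, Ttc5, Ttl, Tubg1, Stmn1, and the 3 genes most like the member with the largest change. Other genes were named after their values were seen. The members and lists were chosen with earlier results of these data known. Lengths, positions and sequences came from GENCODE M21, and a gene's length is the union of its basic coding transcripts. Sequences of Tubb6, proteins and some stretches of other members are not reported here. Alternatives covered the pseudocount, filter, scaling, fitted groups, prior variance, replicate block, edgeR 4.0.16 and DESeq2 1.42.0 on the recovered reads, chromosome medians, lengths and leaving out each library. The test was tried on simulated data.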

Additional observations from a re-analysis of the deposited data

Results flagged for a closer look

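Of 30 groups of 6 libraries, one for each member and group, 2 held a library whose gap to its nearest neighbour exceeded Dixon's 95% critical value as a share of the range. Chance gives this in about 1 group in 20. For Tuba1b the lowest young library, replicate 1, had 140.4 normalized counts. For Tubb3 the highest rejuvenated old library, replicate 5, had 408 normalized counts.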

How the results depend on the processing

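The members called stayed within 5 to 6 for rejuvenated old against old, 7 to 10 for young against old and 8 to 9 for rejuvenated old against young under all alternatives run. The low ends come from the filter of a mean of at least 50, which leaves out Tubb2b, and the high end from scaling to the same total, which added Tubb5 and Tubb6. Fits without 1 of the 18 libraries gave 6, 8 and 9 members called each time, and 5439 to 5994, 12128 to 12362 and 12119 to 12291 genes in all. No alternative turned a called member around. Tubb5 in young against old was called with the same total (0.13), the same 75th percentile (0.06), quantile normalization (0.14) and DESeq2 (0.07), and was -0.17 relative to its chromosome's median. Tubb6 in rejuvenated old against young, 0.03 and not called, was -0.062 with the same total, -0.019 with quantile normalization and -0.17 relative to its chromosome's median. Over the libraries left out, Tuba1c in rejuvenated old against old ran from -0.12 to 0.039, and Tubb6 in young against old from -0.0097 to 0.018, neither called. Libraries of the same number did not deviate together, since 0 of 18 same-numbered pairs correlated above 0.1 and 1 of 18 libraries correlated best with its own number. With the replicate number as a block, 6, 8 and 9 members and 5769, 12219 and 12210 genes were called. Shares of the isotypes moved by more than their SD with coding length for 20 of 30 values, with no length for 20, and with windows found in no other gene, an alternative chosen after seeing the data, for 23. The share of Tuba4a in young libraries was then 43.5%. The cause of these changes was not tested. Depth limits Tubb2b, at 18 reads over the young libraries.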
